A study of Mus musculus with 8 samples.

Results

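The 8 genes described here encode the core of MHC class II antigen presentation: H2-Aa, H2-Ab1 and H2-Eb1, which code for the chains of the peptide-binding molecules, Cd74, H2-DMa, H2-DMb1, H2-DMb2 and Ciita. They are defined by name and not by a threshold on a measured value, and are 8 of the 21755 genes named in at least one of the count tables. All of them were measured in every library, with 2813390 unique molecular identifiers (UMIs, each a counted RNA molecule) in all.

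MHC class II molecules carry peptides from engulfed proteins to the cell surface, where helper T cells read them. Their alpha and beta chains pair in the endoplasmic reticulum with the invariant chain, Cd74, which blocks the groove and steers the complex to lysosome-like compartments. There, cathepsins cut Cd74 down to a short remnant, and the H2-DM heterodimer (an H2-DMa chain with an H2-DMb chain) removes that remnant and edits the bound peptides. Transcription of the whole set depends on the co-activator Ciita, which is constitutive in dendritic cells and B cells and can be induced by interferon gamma in macrophages. In skin, dendritic cells carry the most of these molecules, macrophages a variable amount, and mouse T cells and neutrophils are not known as ordinary sources.

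CD45+ leukocytes were sorted from full-thickness back-skin wounds of C57BL/6 mice (C57BL/6J in the methods) on days 1, 3, 5 and 7 after wounding and sequenced as single cells. In the diabetic group, mice aged 4 weeks had received streptozotocin (STZ), a toxin of insulin-producing cells, at 120 mg/kg after 12 h of fasting, and were wounded once blood glucose reached 16.5 mmol/L or more after 7 days. The control group was wounded without that label, and whether it received a sham injection is not stated. Each group and day is 1 library made from the pooled wounds (5 mm) of 5 male mice, so the spread between mice cannot be seen and no single day can be tested.

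Each library kept between 18814802 and 32956113 UMIs in its filtered cells, 35158 cells of 38959 barcodes in all. The control library of day 5 stood apart: the cell filter removed 28.6% of its barcodes, against 1.0 to 10.8% elsewhere, and its cells were the deepest. Cells were clustered with the MHC class II genes left out, and clusters were named from marker lists that hold none of the 8 genes. This gave 2855 dendritic-like, 6909 macrophage-like, 4229 monocyte-like, 13744 neutrophil-like and 2467 T-like cells, with smaller NK-, mast-, osteoclast- and fibroblast-like classes and 1 unnamed cluster of 3829 shallow cells. Levels are given in CPM, the UMIs of a gene per 1000000 UMIs of the cells named. The dendritic list summed to between 6507 and 10862 CPM in the dendritic-like cells of each library and to no more than 1531 in any other class, and the macrophage list to between 13342 and 30238 in macrophage-like cells. Elsewhere the macrophage list overlapped that range, reaching 19216 in the unnamed cluster and 13649 in monocyte-like cells, and it reached 12299 in neutrophil-like and 10745 in T-like cells. B cell markers stayed between 0 and 72.4 CPM in every class. The monocyte-like class includes a cluster led by Ifit2 whose 10 leading genes held 0 monocyte markers and 1 marker of another list (Ifi205), so between-group values of that class are also given by cluster. The column names do not carry the cell barcodes, so barcodes shared between libraries could not be counted, although 0 kept cells had identical counts.

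Of the members, 7 are placed here on the mouse build GRCm38 with the GENCODE annotation. H2-DMa (chr17:34119541-34139101), H2-DMb2 (chr17:34143307-34151555), H2-DMb1 (chr17:34153072-34160230), H2-Ab1 (chr17:34257689-34269419) and H2-Eb1 (chr17:34305867-34316674) lie on the plus strand of 1 stretch of chromosome 17, with H2-Aa (chr17:34282744-34287823) on the minus strand between the last of these. Ciita lies on chromosome 16 (chr16:10480059-10528418, plus strand). Brd2 overlaps H2-DMa on the opposite strand, Gm20513 overlaps H2-Eb1 and Dexi overlaps Ciita, and whether reads were counted by strand is not given in the sources used here, so reads from these overlaps cannot be assigned with certainty. The build named by the submitters' processing notes (mm9) and the annotation named in the methods (Ensembl version 92) differ, so these coordinates describe the genes and not the alignment.

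MHC class II promoters are read through a conserved module in which an X box, bound by the RFX complex, sits a few helical turns upstream of a Y box, bound by NF-Y, and Ciita docks on the assembled complex. The promoters of 4 members are shown so that their shared control region can be seen. RefSeq promoters (GRCm38.p6, 250 bases before to 50 after the start) were matched for 5 of the members, H2-DMa with 2 starts, and searched on both strands for the Y box letters GATTGG and the X box letters AACNGATG, which do not overlap. Capitals mark the matches in the windows of 100 bases below, written 5′ to 3′ on the strand of the gene, at chr17:34145098-34145197 (plus) for H2-DMb2, chr17:34153069-34153168 (plus) for H2-DMb1, chr17:34305747-34305846 (plus) for H2-Eb1 and chr17:34287833-34287932 (minus) for H2-Aa.
H2-DMb2: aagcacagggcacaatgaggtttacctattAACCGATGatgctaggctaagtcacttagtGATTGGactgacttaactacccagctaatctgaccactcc
H2-DMb1: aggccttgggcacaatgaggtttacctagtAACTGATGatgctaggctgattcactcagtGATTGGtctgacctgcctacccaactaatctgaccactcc
H2-Eb1: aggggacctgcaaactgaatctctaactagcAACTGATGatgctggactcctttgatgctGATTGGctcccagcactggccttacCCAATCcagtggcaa
H2-Aa: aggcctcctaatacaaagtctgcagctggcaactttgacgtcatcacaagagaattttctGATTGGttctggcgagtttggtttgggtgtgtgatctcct

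Both DM beta-chain promoters and that of H2-Eb1 held both boxes, the X box starting 30, 30 and 29 bases upstream of the Y box. The H2-Eb1 window also held a second Y box on the reverse strand (CCAATC). The H2-Aa window held the Y box letters, 49 bases before the start, without the X box letters used here, and of the H2-DMa starts 1 had a Y box match at 199 bases and neither had an X box match. Over the 32851 promoters of the same length in the table, 16.1% held the Y box letters, 2.32% the X box letters and 0.335% both. A match of letters is a description of the sequence and not a measured binding site.

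Dendritic-like cells held the highest summed level of these genes in every library. Summed over the 8 members, dendritic-like cells had 40362, 59645, 58201 and 56411 CPM in the diabetic libraries of days 1, 3, 5 and 7, and 39585, 59432, 57531 and 49972 in the control libraries. Both day 1 libraries were low and the other 6 lay close together, with a median over the 8 of 56971. Macrophage-like cells had 7264, 11056, 15291 and 22267 CPM in the diabetic libraries and 5061, 15872, 9551 and 15364 in the controls. Monocyte-like cells ranged from 2814 to 21771 (median 14320), again lowest in both day 1 libraries, and the ranges of these 2 classes overlapped. Neutrophil-like cells ranged from 984 to 12633 (median 5409) and T-like cells from 796 to 10418 (median 5039). No dendritic-like library overlapped a library of another class, the nearest being the unnamed cluster at up to 27656.

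**Figure D1:**
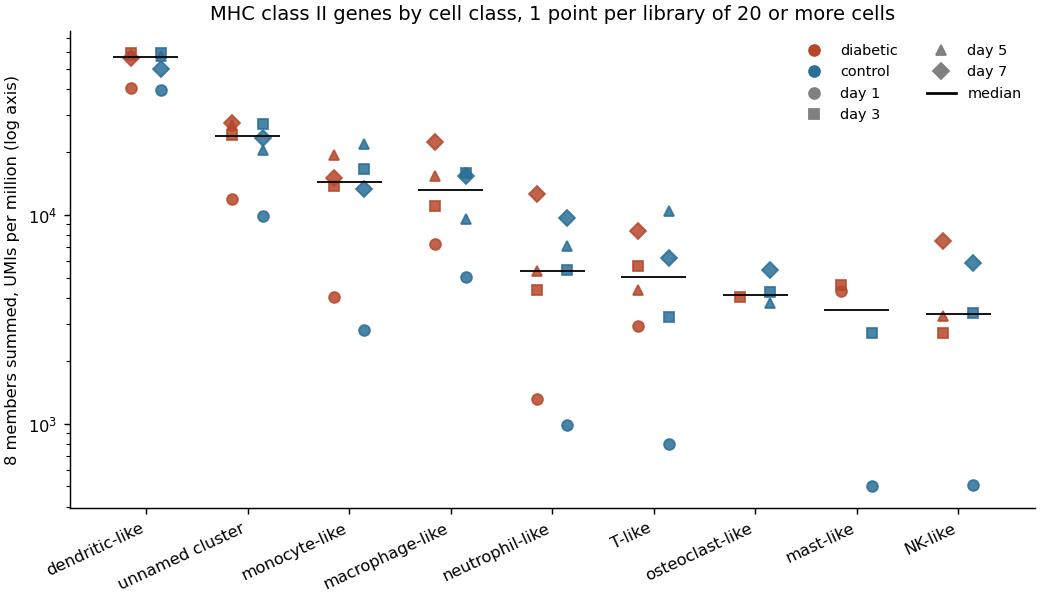
Summed CPM of the 8 MHC class II genes (log axis) by cell class. Each point is 1 library with at least 20 cells of the class, color is the group, shape is the day and the black line is the median. Dendritic-like cells sit between 39585 and 59645, above the 796 to 10418 of T-like cells, and day 1 is the lowest day in most classes.

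Mouse T cells are not known to make MHC class II, so their level gauges RNA that reached a cell's barcode from elsewhere, and each class was divided by the T-like cells of its own library. The T-like class carried its own markers at 5876 to 8779 CPM in every library. The dendritic-like level was 5.52 to 49.7 times the T-like level (median 11.9), above 1 by its counting interval in 8 of 8 libraries. Macrophage-like cells had a median ratio of 2.57 and were above 1 in 7 of 8 libraries, the exception being the control library of day 5 at 0.92. Monocyte-like cells had a median of 2.27, above 1 in 8 of 8. Neutrophil-like cells were at 0.45 to 1.68 times the T-like level (median 1.23), above 1 in 5 libraries and below in 3, and NK-like cells were at 0.48 to 1.05 times in 6 libraries. These ratios describe classes of cells from shared libraries, and their intervals cover counting error only.

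The sums of T-like cells were uneven between cells. The control library of day 5 gave the highest T-like level (10418), in 169 cells that also carried macrophage markers at 10745 CPM, against 1098 to 6843 in the other libraries. Its median T-like cell stood at 2410 CPM while 1 in 10 cells exceeded 34005. The 5% of T-like cells richest in member UMIs held 45.5% of them there, 75.5% in the diabetic library of day 1, 51.2% in that of day 3 and 31.6 to 40.8% in the other 5. The day 1 sums of 2948 (diabetic) and 796 (control) lay further apart than their median cells, at 698 and 493. Taken by the median cell, neutrophil-like cells were at 0.99 to 1.30 times the T-like cells of their library (median 1.12), NK-like cells at 0.86 to 1.02, monocyte-like cells at 1.06 to 2.50 (median 1.33), macrophage-like cells at 1.20 to 3.19 (median 2.45) and dendritic-like cells at 8.78 to 80.4 (median 23.7). The control library of day 5 was again the lowest among macrophage-like cells by that measure, at 1.20. The part of mixed barcodes in these levels was not tested.

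By role, the surface chains set the scale. H2-Ab1, the beta chain of the H2-A molecule, was at 12353, 19174, 18920 and 18101 CPM in diabetic and 11885, 17936, 17865 and 14830 in control dendritic-like cells on days 1, 3, 5 and 7. In macrophage-like cells H2-Ab1 was at 1808, 3260, 4406 and 6612 in the diabetic and 1319, 4054, 2697 and 4247 in the control libraries. Its partner H2-Aa ranged from 9333 to 16201 in dendritic-like and from 1183 to 5978 in macrophage-like cells, and H2-Eb1, the beta chain of the H2-E molecule, from 6792 to 11158 and from 786 to 3543. For all 3 chains dendritic-like cells had the highest median level of the classes, at a median of 11.6 to 12.2 times the T-like level.

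Cd74, the invariant chain, was the steadiest member in dendritic-like cells, at 12086 ± 1074 CPM (SD, n = 8 libraries). In macrophage-like cells it stood at 2542, 2639, 4030 and 5824 in the diabetic and 1667, 4533, 2400 and 4386 in the control libraries. Relative to the 3 surface chains, macrophage-like Cd74 was highest on day 1, at 0.55 and 0.51 Cd74 UMIs per surface-chain UMI in the diabetic and control library, against 0.32 to 0.41 on later days.

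The H2-DM editors differed among themselves over classes and days. H2-DMa was at 321 to 533 CPM in dendritic-like and 54.5 to 149 in macrophage-like cells, and H2-DMb1 at 278 to 413 and 35.5 to 113. H2-DMb2, the second DM beta chain, stood at 97.3, 213, 258 and 285 in the diabetic and 138, 293, 318 and 240 in the control dendritic-like cells. The diabetic library of day 1 held the lowest H2-DMb2 level and the highest H2-DMb1 level (413) of the 8. The 3 DM genes together gave 32.9 UMIs per 1000 surface-chain UMIs in that library, 20.9 to 21.9 in the later diabetic ones and 23.0 to 27.2 in the controls. In macrophage-like cells H2-DMb2 was only at 1.11, 14.9, 16.1 and 27.4 in the diabetic and 2.63, 9.77, 9.97 and 13.0 in the control libraries. Against the T-like gauge, H2-DMb2 was at a median of 22.8 in dendritic-like cells but 1.03 in macrophage-like and 0.90 in monocyte-like cells. By the counting interval macrophage-like cells were above 1 in 0 libraries and monocyte-like cells in 1 of 8. The macrophage-like median is the control library of day 1, from 4 macrophage-like and 1 T-like UMIs. No macrophage-like ratio was formed for the diabetic library of day 1, with 1 and 2 UMIs. The other macrophage-like ratios ran from 0.39 to 1.79. For H2-DMb1 the medians were 13.3 in dendritic-like, 2.94 in macrophage-like and 3.38 in monocyte-like cells.

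Ciita, the co-activator, was measured at low counts. It stood at 81.9, 93.9, 94.7 and 104 CPM in diabetic and 76.2, 129, 95.4 and 71.7 in control dendritic-like cells, and these 2 ranges overlapped. In macrophage-like cells it was 0 in the diabetic library of day 1 and 4.599 to 22.4 in the other 7, and the T-like cells held 68 Ciita UMIs in all 8 libraries together. Macrophage-like cells exceeded T-like cells by the counting interval in 4 libraries and monocyte-like cells in 2, against 7 for dendritic-like cells (the eighth had 0 Ciita UMIs in T-like cells).

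**Figure D2:**
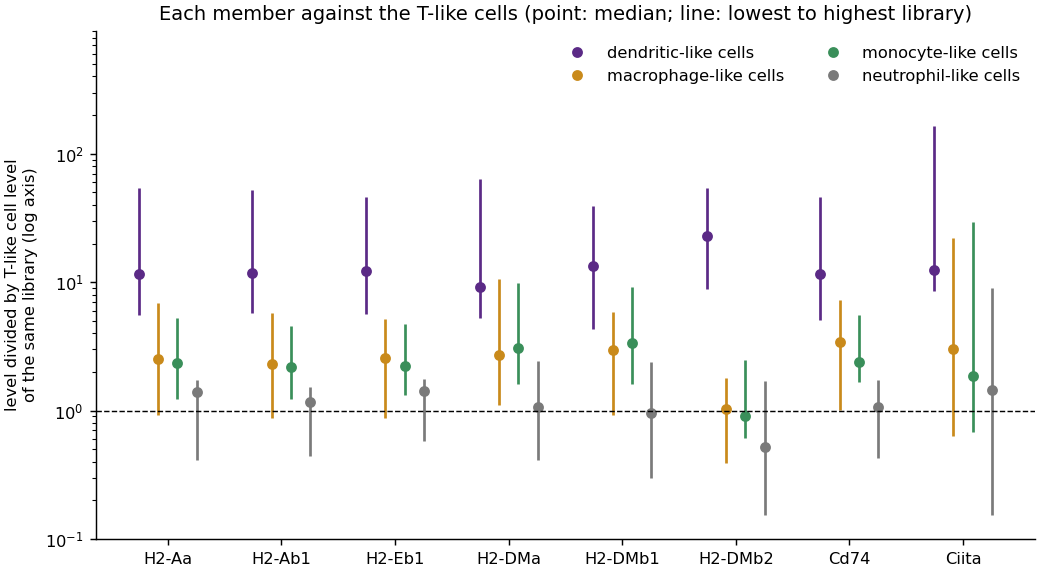
Level of each member in 4 classes divided by the level in T-like cells of the same library (log axis). Points are medians over libraries, lines run from the lowest to the highest library and the dashed line marks equal levels. H2-DMb2 is the member for which macrophage-like (1.03) and monocyte-like cells (0.90) have a median near the T-like level while dendritic-like cells (22.8) do not. The macrophage-like median of H2-DMb2 rests on a library with 4 such UMIs in macrophage-like and 1 in T-like cells. The long upper ends for Ciita rest on libraries whose T-like cells held few Ciita UMIs.

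Depth differed between classes, with a median of 7214 UMIs in dendritic-like, 8442 in macrophage-like, 2472 in neutrophil-like and 3914 in T-like cells, so each cell was also thinned to 1000 UMIs. After thinning, a Ciita UMI was found in 8.28% of dendritic-like cells (95% exact binomial interval 7.27 to 9.38%) and in 1.47% of macrophage-like, 0.71% of monocyte-like, 0.20% of neutrophil-like and 0.52% of T-like cells. Unthinned, the Ciita share was 31.9% of dendritic-like and 1.95% of T-like cells. The intervals of the thinned shares pool cells over libraries, so they cover counting error and not the spread between libraries. For H2-DMb2 the thinned shares were 16.7% in dendritic-like, 1.36% in macrophage-like, 0.91% in monocyte-like and 1.08% in T-like cells, and the macrophage-like and T-like intervals (1.10 to 1.67% and 0.70 to 1.59%) overlapped. H2-DMa reached 27.5% in dendritic-like, 10.5% in macrophage-like, 9.12% in monocyte-like and 3.75% in T-like cells. Any member was found in 99.6% of dendritic-like and 92.3% of T-like cells, so the presence of any member did not separate these classes. Thinning left out 126 dendritic-like, 303 macrophage-like, 173 monocyte-like, 738 neutrophil-like and 146 T-like cells that were shallower.

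Within the dendritic-like cells the 2 DM beta chains changed places between clusters. One cluster (2351 cells) was led by Cd209a, Klrb1b and Mgl2, genes of the type 2 conventional kind, and the other (504 cells) by Fscn1, Ccl22, Tbc1d4 and Ccr7, genes of mature dendritic cells that migrate to lymph nodes. In the Cd209a cluster H2-DMb2 made up 19.1, 36.3, 37.9 and 45.1% of the H2-DMb1 and H2-DMb2 UMIs in the diabetic libraries of days 1, 3, 5 and 7, and 23.3, 39.2, 45.6 and 40.5% in the controls. In the Ccr7 cluster it made up 82.7, 83.3 and 86.2% in the diabetic libraries of days 3, 5 and 7, and 90.2, 86.8, 82.8 and 87.5% in the controls, while the diabetic library of day 1 held only 2 such UMIs. The shares of the 2 clusters did not overlap over the 7 libraries with more than 2 such UMIs in the Ccr7 cluster. Pooled over libraries, the shares were 85.0% against 38.7%.

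H2-DMb1 was low in the Ccr7 cluster. Pooled over libraries, H2-DMb1 stood at 49.6 CPM in the Ccr7 cluster and 384 in the Cd209a cluster, whereas H2-DMb2 stood at 281 and 243. H2-DMa was also low in the Ccr7 cluster (106 against 464), H2-Ab1 was at 8120 against 19513, Cd74 at 7417 against 13560 and Ciita at 66.6 against 104. The summed members ranged from 8182 to 38330 CPM in the Ccr7 cluster and from 44354 to 68135 in the Cd209a cluster, so the latter was higher in every library. The macrophage- and monocyte-like classes lay low on the same share: H2-DMb2 made up 14.9% in macrophage-like and 9.84% in monocyte-like cells, and 7.36% in the monocyte-like cluster led by Vcan. Neutrophil-like cells were at 23.6% pooled, from 6.35% in the diabetic library of day 1 to 36.9% in that of day 7. NK-like cells were at 43.9% pooled, with 55.6% in the diabetic and 34.6% in the control library of day 7. The pooled T-like share of 38.3% joins unlike libraries, since it was 56.5% in the diabetic library of day 7 and 25.7 and 25% in the control libraries of days 5 and 7. H2-DMb1 and H2-DMb2 are neighbouring, near-identical genes, so reads could be split between them or dropped in counting, and a share is comparable between cells only as far as that loss was the same in each.

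**Figure D3:**
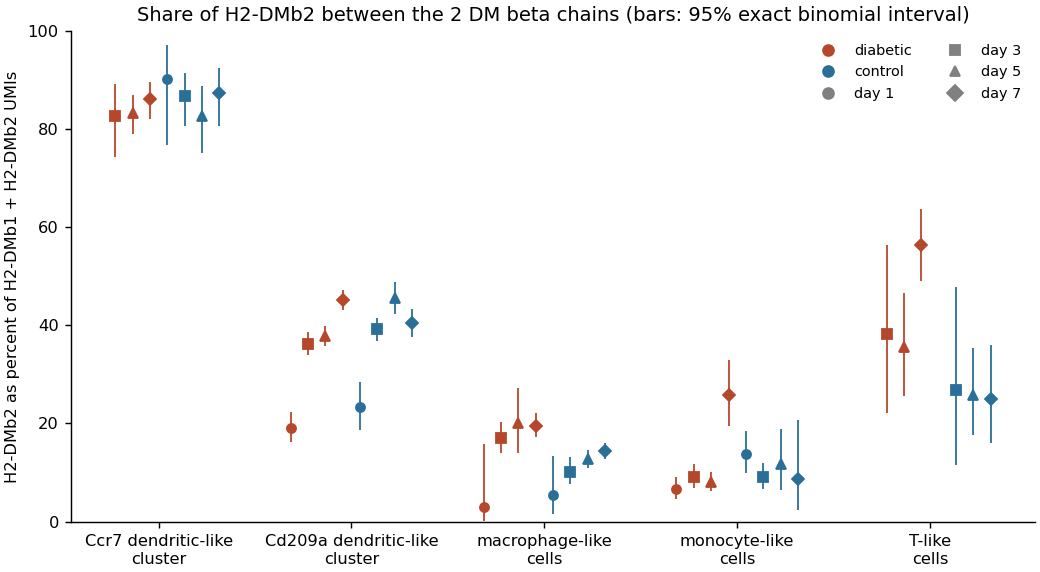
H2-DMb2 as a percentage of the UMIs of both DM beta chains, in the Ccr7 and Cd209a dendritic-like clusters and in macrophage-, monocyte- and T-like cells. Each point is 1 library with at least 20 such UMIs, bars are 95% exact binomial intervals, color is the group and shape the day. The Ccr7 cluster lies between 82.7 and 90.2%, the Cd209a cluster between 19.1 and 45.6%.

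Clusters within the macrophage- and monocyte-like classes were also set against the T-like cells of their library. The cluster led by Retnla, Ccl8 and Lyve1, genes of resident skin macrophages, stood at 1.33 to 13.6 times the T-like level over 8 libraries (median 3.95), and that led by Pf4, Ms4a7 and Gpnmb at 0.80 to 5.53 times (median 1.89). The cluster led by Igf1, Gdf15 and Apoe stood at 1.74 to 6.599 times (median 3.39) over the 6 libraries of days 3 to 7, so its median is not comparable with the other two, which include the day 1 libraries. Among monocyte-like clusters, the Vcan cluster had a median of 3.45 times and the Ifit2 cluster of 3.74 times, both over the 7 libraries other than the control of day 7. The unnamed cluster, with a median of 854 UMIs per cell, summed to 9832 to 27656 CPM, and its cells could not be placed in a class.

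The classes that held the member UMIs of the sorted CD45+ cells differed between the groups by the last days. Dendritic-like cells gave 49.1, 49.4, 56.4 and 48.5% of all member UMIs in the diabetic libraries of days 1, 3, 5 and 7, from 4.35, 8.81, 12.7 and 16.5% of the cells. In the control libraries they gave 43.0, 43.6, 27.2 and 23.1%, from 2.63, 8.78, 5.54 and 6.81% of the cells. Macrophage-like cells gave 44.0 and 58.2% in the control libraries of days 5 and 7, against 6.66 and 31.4% in the diabetic ones. Monocyte-like cells gave 31.1 and 32.2% on day 1 and 4.94 and 1.33% on day 7 in the diabetic and control library. The unnamed cluster held 12.4 and 12.1% in the control libraries of days 3 and 5, against 1.81 to 4.54% elsewhere. The control library of day 5 also stood apart in its cell filter. With 1 library per group and day, these shares have no replicate check. Pooled by gene, dendritic-like cells held 74.0% of H2-DMb2 and 56.6% of Ciita UMIs, but between 36.7 and 43.4% of those of the other 6 members.

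**Figure D4:**
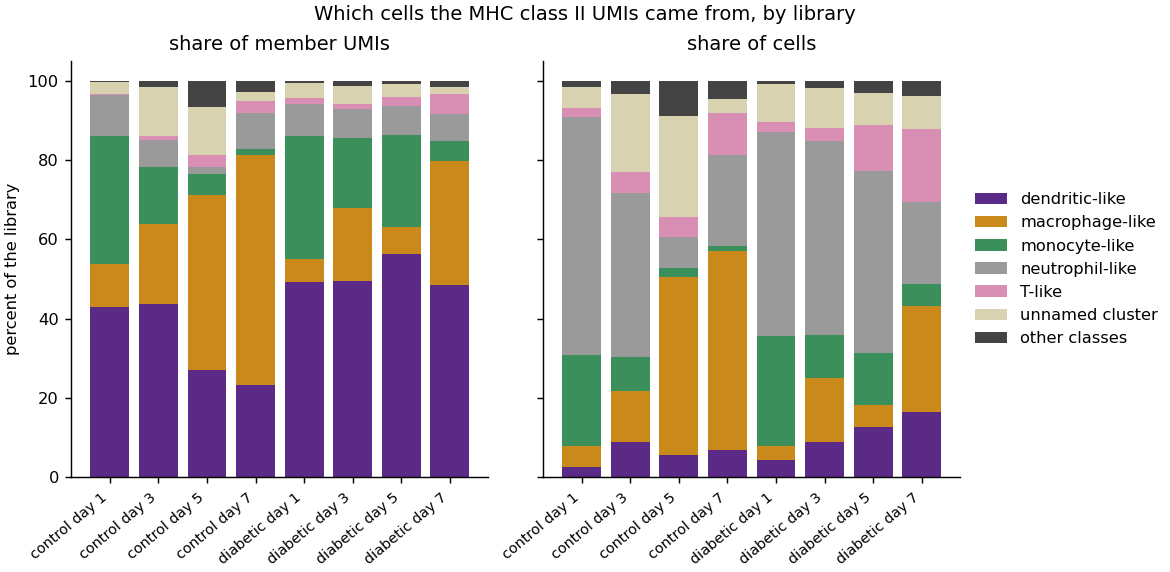
Stacked bars give, for each library, the percentage of member UMIs (left) and of cells (right) that fell in each class. Dendritic-like cells supply 23.1 to 27.2% of the UMIs in the control libraries of days 5 and 7 and 48.5 to 56.4% in the diabetic ones.

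Whether the genes changed as wounds aged was tested as a linear trend over days 1 to 7 with a term for group, by edgeR's quasi-likelihood test on UMIs summed per library and class (log2 change per day, Benjamini-Hochberg adjustment over all genes tested). In macrophage-like cells H2-Ab1 rose by 0.25 per day (SE 0.056, adjusted p = 0.0410), and 1 of 8 members passed (6 at an unadjusted p under 0.05, 5 by DESeq2), where 1.8% of all genes passed in either direction and 1.28% upwards. Values for H2-Eb1 (0.24 per day, adjusted p = 0.0655), H2-Aa (0.24, 0.0833) and H2-DMb2 (0.30, 0.0886) fell short of the 0.05 threshold. All 8 slopes were positive, between 0.11 and 0.30. The clusters behind the class changed over the days. On day 1 the Pf4 cluster held 127 of 171 diabetic and 189 of 226 control cells. On day 7 the Igf1 cluster held 767 of 973 and 2121 of 2334. Within the Pf4 cluster H2-Ab1 was at 1430, 3046, 3696 and 4870 CPM in the diabetic libraries of days 1, 3, 5 and 7. In the control libraries it was at 1163, 3597, 2365 and 2380. The part of the cluster change in the slope was not tested. The call for H2-Ab1 was lost without the day 1 libraries (0.13 per day, adjusted p = 0.673), without those of day 7 (0.30, 0.127) and with other ways of drawing the classes, and the count was 2 without the control library of day 5, 6 without the filter on low genes and 7 without the day 3 libraries.

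In neutrophil-like cells 8 of 8 members rose with time, by 0.24 to 0.48 per day with edgeR adjusted p from 0.00201 (Cd74) to 0.0468 (Ciita). There, 41.9% of all genes passed and 22.2% upwards, so calls were common in this class. The macrophage list ranged from 531 to 12299 CPM in these cells over the libraries. The 5% of these cells richest in member UMIs held 34.4, 36.1, 40.2 and 58.5% of them in the diabetic libraries by day. In the control libraries that share was 37.4, 54.5, 73.5 and 56.4%. The part of macrophage RNA or mixed barcodes in these slopes was not tested. The same slopes in T-like cells were 0.35 per day for H2-Aa (adjusted p = 0.383), 0.34 for H2-Ab1 and 0.30 for Cd74, with 0 of 8 members past the threshold, 6 at an unadjusted p under 0.05 and 2 by DESeq2, where 0.0468% of all genes passed. The slopes of these 3 genes in neutrophil-like cells were 0.36, 0.35 and 0.35, and the difference between the classes was not tested. No neutrophil call remained without the day 1 or without the day 7 libraries.

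Dendritic-like cells showed no call over time: 0 of 8 members passed by edgeR, 2 had an unadjusted p under 0.05 and 0 passed by DESeq2, where 0.304% of all genes passed. The 2 were the DM beta chains, H2-DMb2 with 0.17 per day (SE 0.058, adjusted p = 0.289) and H2-DMb1 with -0.07 (SE 0.030, adjusted p = 0.430). Slopes of the other 6 lay between -0.05 and 0.07, and without the day 1 libraries 1 of the 8 slopes was positive. In monocyte-like cells 0 of 8 passed (5 at an unadjusted p under 0.05, 2 by DESeq2), with slopes of 0.11 to 0.33 and 0.756% of all genes called, and without the day 1 libraries 2 of the 8 slopes were positive. Over all kept cells 0 of 8 passed (3 unadjusted, 4 by DESeq2), with slopes of 0.07 to 0.27 and 10.3% of genes called, and without the day 1 libraries only 1 of the 8 slopes stayed positive. In a whole library, more cells of a type and more RNA per cell cannot be told apart.

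**Figure D5:**
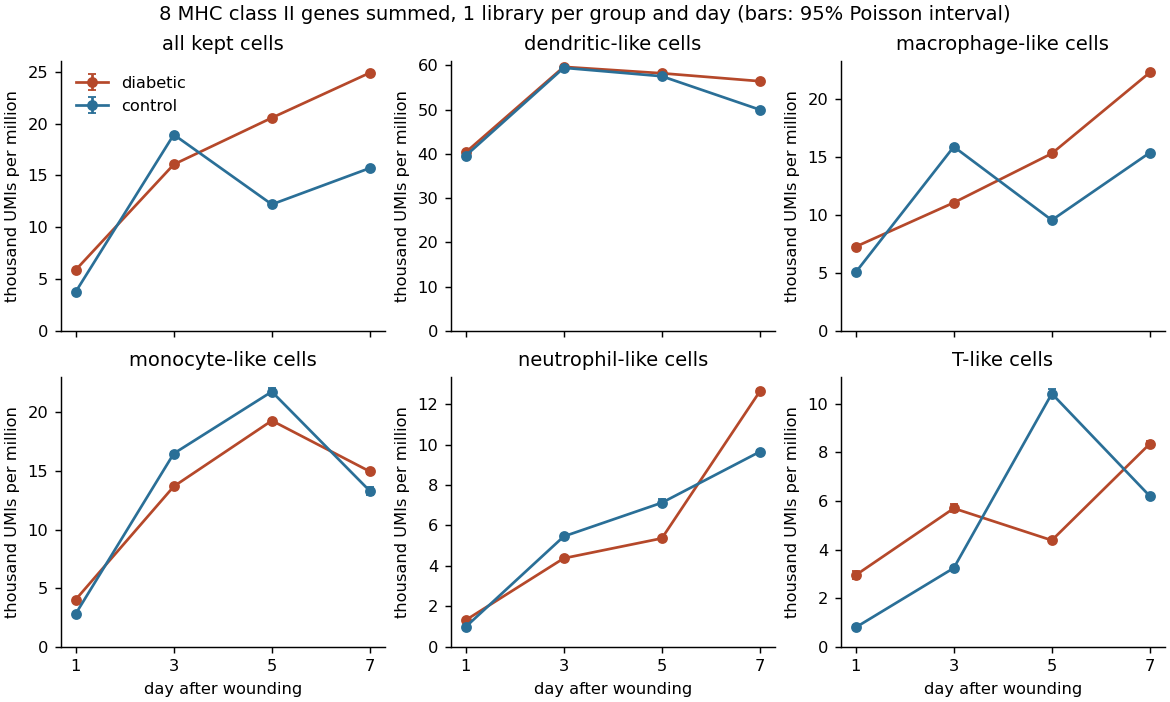
Summed CPM, in units of 1000, of the 8 members by day after wounding, for all kept cells and 5 classes. Each point is 1 library, color is the group and bars, mostly smaller than the points, are 95% Poisson intervals. Day 1 is the lowest day of both groups in each panel, and the lines of the groups cross in all panels but that of dendritic-like cells, where they nearly coincide until day 5.

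Diabetic and control wounds were compared over the 4 days, with day as a block. No member passed in any class. In dendritic-like cells the fitted difference (log2, diabetic over control) was 0.10 for H2-Ab1 (SE 0.091), 0.02 for H2-Aa (SE 0.088), -0.03 for Cd74 (SE 0.091), 0.01 for Ciita (SE 0.166) and -0.27 for H2-DMb2 (SE 0.145), with edgeR adjusted p between 0.842 and 0.999. By day, the summed members in diabetic dendritic-like cells were 1.02, 1.00, 1.01 and 1.13 times the control on days 1, 3, 5 and 7. Within the Cd209a cluster the ratio was 0.91, 1.05, 1.00 and 1.11. In the smaller Ccr7 cluster it was 0.49, 0.66, 1.06 and 1.21, lower in the diabetic library on days 1 and 3 and higher on days 5 and 7, from 23 diabetic and 27 control cells on day 1. These cluster ratios were not tested. Of the members, 0 of 8 were called by edgeR, 0 had an unadjusted p under 0.05 and 0 were called by DESeq2, where 0.01% of all genes passed.

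In macrophage-like cells the ratio also varied by day. The diabetic over control ratio of the summed members was 1.44, 0.70, 1.601 and 1.45 on days 1, 3, 5 and 7, higher on 3 days and lower on day 3. H2-DMb2 had the largest fitted difference (0.76, SE 0.24, edgeR adjusted p = 0.261) and H2-Ab1 was at 0.38 (SE 0.149, adjusted p = 0.364). Here 0 of 8 passed by edgeR, 2 had an unadjusted p under 0.05 and 0 passed by DESeq2, with 0.0719% of all genes called. The same cluster held most of the class in both groups on each of the later days: the Pf4 cluster had 151 of 230 diabetic and 1003 of 1470 control cells on day 5, and the Igf1 cluster 767 of 973 and 2121 of 2334 on day 7. Within the Pf4 cluster the ratio was 1.29, 0.74, 1.56 and 1.79, within the Retnla cluster 1.31, 0.40, 1.68 and 1.24, and within the Igf1 cluster 1.15, 1.598 and 1.51 on days 3, 5 and 7. The lower diabetic value of day 3 thus appeared in the Pf4 and Retnla clusters and not in the Igf1 cluster, which held 64 diabetic and 84 control cells that day.

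In monocyte-like cells the class ratio was 1.43, 0.83, 0.89 and 1.13. On days 1, 3 and 5 it was 1.28, 1.32 and 0.67 in the Vcan cluster and 1.01, 0.74 and 1.13 in the Ifit2 cluster. The Ifit2 ratio of day 1 had a counting interval of 0.99 to 1.04. Neither cluster kept 1 direction over these days, but the day 5 ratios rest on 24 and 23 control cells. Those cells came from the control library that stood apart in its cell filter. The class test called 0 of 8 by edgeR, 0 at an unadjusted p under 0.05 and 0 by DESeq2, with 0% of all genes called, and the count was also 0 without the Ifit2 cluster. Neutrophil-like cells (0 of 8 by edgeR, 0 unadjusted, 0 by DESeq2, 0.0468% of genes called) and T-like cells (0, 0 and 0, with 0% called) gave no call either. T-like ratios of 3.70, 1.76, 0.42 and 1.35 ranged more widely than those of the dendritic-, macrophage- and monocyte-like classes, and the part of free RNA in the other classes' ratios was not tested.

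Over all kept cells the diabetic libraries stood at 5897, 16062, 20554 and 24895 CPM on days 1, 3, 5 and 7 and the controls at 3789, 18934, 12210 and 15709. The ratio was 1.56, 0.85, 1.68 and 1.58, and fitted differences were positive for 8 of 8 members (0.37 to 0.78, edgeR adjusted p 0.451 to 0.544). 0 of 8 passed by edgeR, 1 (H2-Ab1) had an unadjusted p under 0.05 and 0 passed by DESeq2, with 0% of all genes called. On days 5 and 7 the share of dendritic-like cells was 12.7 and 16.5% in the diabetic and 5.54 and 6.81% in the control libraries, and its part in the whole-library difference was not tested.

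Genes around the pathway were read from lists. Of the 8 genes from interferon gamma to Ciita, Jak2, a kinase of the interferon gamma receptor, was higher in diabetic macrophage-like cells (log2 0.88, SE 0.12, edgeR adjusted p = 0.0271), a call that held in 9 of 16 alternatives (adjusted p 1.6e-08 to 0.8498, log2 0.78 to 0.99). No other list gene passed for diabetic against control in any class. Over time in macrophage-like cells H2-Ob, a chain of the DM inhibitor H2-O, rose by 0.45 per day (adjusted p = 0.0404), Ifng by 0.60 (0.0474) and its receptor chain Ifngr1 by 0.17 (0.0229). H2-Ob and Ifng were low there, with a median of 3.35 and 1.496 CPM, whereas Ifng stood at a median of 46.0 in T-like and 246 in NK-like cells, and H2-Ob at 71.2 in dendritic-like cells. In neutrophil-like cells, where 22.2% of all genes passed upwards and 19.7% downwards, 4 of 6 lysosomal processing genes rose (Ctss, the cathepsin that cuts Cd74, by 0.46 per day, with Ctsl, Ctsb and Lgmn), as did 3 of 4 costimulation genes (Cd40, Cd83, Cd86) and H2-Eb2, while Cd80 fell, as did Jak2, Irf1, Socs1, Jak1 and Ifngr2 among the genes from interferon gamma to Ciita (slopes -0.26 to -0.14). Macrophage markers ranged from 531 to 12299 CPM in neutrophil-like cells over the libraries. Pooled over libraries, Ctss was at 6018 CPM in macrophage-like and 1377 in neutrophil-like cells, and Lgmn at 1397 and 248. The part of macrophage RNA in the neutrophil-like slopes was not tested. The promoter complex genes (Rfx5, Rfxap, Rfxank, Nfya, Nfyb, Nfyc and Creb1), the turnover ligases and Mif, a Cd74 ligand, passed in 0 tests. In dendritic-, monocyte- and T-like cells no list gene passed in either comparison.

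Over 63 combinations of class and library, the gene outside the members with the most similar pattern was Cxcl16 (Pearson r of log2 of CPM plus 20 = 0.94), followed by Cst3 (0.89), Mgl2 (0.88), Cd40 (0.87) and Ctsh (0.87). The members themselves correlated with their sum at 1.00 for H2-Ab1, 0.95 for H2-DMa, 0.92 for H2-DMb1, 0.84 for Ciita and 0.77 for H2-DMb2. Mgl2 is among the dendritic markers and Cd40 in the costimulation list. The points share libraries and classes and follow the dendritic-like level, so the values describe likeness and carry no test.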

How the data were processed

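Count tables of UMIs per gene and cell were deposited by the authors, 1 per library. Per the labels and methods, reads were trimmed with fastp 0.20.1, barcodes were listed with UMI-tools and reads were aligned with STAR. The record names the 10x Genomics platform and the methods BD Rhapsody. Following the methods, the filter required more than 200 genes in a cell and a mitochondrial share below 20%. Cells were scaled to 10000 UMIs, a value not given in the methods, and clustered with scanpy 1.11.5 without the MHC class II genes. The 2000 variable genes, 10 components and resolution 0.8 follow the methods. The methods used Seurat and describe a regression on UMI counts and mitochondrial share, which is not among the steps listed here. A cluster took the name of the marker list with the highest mean log2 fold, if at least 0.25 and at least 3 markers were detected. Scrublet called 68 cells (0.193%), too few to have worked, so doublets remain, and the 5% of highest scores were left out as an alternative. UMIs were summed per library and class of at least 20 cells. CPM values, with 95% Poisson intervals, are these sums over the UMIs of the class. Tests were run with edgeR 4.0.16 (TMM, filterByExpr, quasi-likelihood, threshold 0.05) on these counts, and with DESeq2 1.42.0 as an alternative. P-values rest on how far the libraries, each of pooled mice, departed from the fitted model. With 1 library per group and day, that departure joins differences between groups by day with the spread between replicate libraries. These cannot be told apart. Counts were simulated for all kept, dendritic-like and macrophage-like cells, with a fixed spread that was not estimated from these data. In them 200 well-counted genes changed by a log2 of 2, between groups or from day 1 to day 7. Over the 6 fits simulated 98 to 100% were recovered, and 1.96 to 5.26% of calls were false. Recovery of smaller changes, of genes with few UMIs or under the spread of these data is not shown by it.

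Named genes were the 8 members, the list genes that passed and the 5 genes nearest in pattern among those with at least 500 UMIs. The members and lists were chosen with earlier results of these data known. The Y box letters were chosen with the promoters in view. Intervals cover counting error only. Some list genes and 1 monocyte-like cluster are not reported here. Promoter sequences for Ciita, H2-Ab1 and Cd74 were not used here.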

Additional observations from a re-analysis of the deposited data

Results flagged for a closer look

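Of 110 sets of 4 libraries of 1 group examined for a library far from the other 3, 2 were flagged, where chance flags about 1 in 20. Both were the diabetic day 1 library in dendritic-like cells. The summed members stood at 40362.4 CPM, with the next library at 56410.5 and the highest at 59645.4 (gap over range 0.832). H2-Ab1 stood at 12352.5, with the next at 18101.2 and the highest at 19173.8 (0.843). The control day 1 library was low too (39585 and 11885) and was not flagged in its group.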

How the results depend on the processing

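Counts of members past the threshold equalled the main count, or kept within 1.5 times of it, in most of the alternatives. Most main counts were 0, for which only another 0 was taken as the same. Placing the unnamed cluster by its best list (B cell) added no cells to a tested class, so that alternative could not move a count. The trend in macrophage-like cells (1 member) moved to 5 with DESeq2, 6 without the filter on low genes, 2 without the control library of day 5 and 0 with resolution 0.4, resolution 1.6, cells named singly or the highest 5% of doublet scores left out, and ranged from 0 to 7 when 1 day was left out. The trend in monocyte-like cells (0) moved to 2 with DESeq2, 5 without the filter, 1 at resolution 1.6 and 1 with cells named singly, and ranged from 0 to 2 when 1 day was left out. The trend in neutrophil-like cells (8) ranged from 0 to 8 when 1 day was left out, with 0 without day 1 and 0 without day 7. The trend in T-like cells (0) moved to 2 with DESeq2 and 4 without the filter, that in dendritic-like cells to 1 without the filter, and that over all kept cells to 4 with DESeq2 and 0 to 7 when 1 day was left out. The diabetic against control count in macrophage-like cells (0) moved to 1 without the filter. The summed members in dendritic-like cells, at a mean of 52642 CPM, moved to 39730 with cells named singly. In each case the cause was not tested. No called result reversed its direction. The 19 calls on pathway list genes kept their sign in the 15 or 16 alternatives run, with each call lost in 1 to 10 of them, alternatives added after seeing the data. The diabetic against control comparison was paired by day, each day being a block. Without that block of days 0 members passed in each class, as with it, where 7 members were tested in T-like cells and 8 elsewhere. The Jak2 call was lost without the block. The doublet and control day 5 alternatives and the one without the Ifit2 cluster were chosen after seeing the data. Depth limits Ciita and H2-DMb2 most, with 3638 and 7145 UMIs in all.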
